A study of Mus musculus with 4 samples.

Results

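The scavenger receptors for modified lipoproteins were followed here as 8 genes, Msr1, Marco, Cd68, Scarb1, Colec12, Cd5l, Olr1 and Scara5, chosen by name from the 35869 genes listed for each sample, and all 8 were found. RNA-seq was done on CD45+ cells that were pulled with microbeads from the stromal vascular fraction of the epididymal white adipose tissue (eWAT) of male wild-type C57BL/6 mice. One group was fed a normal diet (ND), with 10% of calories as fat, and the other a high-fat diet (HFD), with 60%. Feeding began at 8 weeks of age and lasted 12 weeks, and each diet had 2 samples. No group with a deletion or a transgene was among these samples. The number of mice behind a sample is not given in the sources used here, so the p-values measure only the spread between these samples, which may be technical.

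LDL that has been oxidized or acetylated is taken up by scavenger receptors, a group of proteins with unrelated structures that bind polyanionic ligands. In macrophages this uptake is not turned down by the cholesterol content of the cell, which is how macrophages fill with lipid droplets and become foam cells. In obese fat, macrophages gather around dying adipocytes and take up lipid in a similar way. Msr1, Marco, Colec12 and Scara5 belong to the class A receptors, which have collagen-like stalks. Cd68 is a glycoprotein of endosomes and lysosomes, Scarb1 is the HDL receptor SR-BI, Olr1 is the lectin-like receptor for oxidized LDL, and Cd5l is a secreted protein of tissue macrophages with scavenger receptor cysteine-rich domains. Scara5 is better known for the uptake of ferritin and is a gene of stromal cells.

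Expression was deposited as TPM, a unit in which a count is divided by the length of the gene and scaled to the same total per sample, so that levels of different genes can be compared but only as shares of the RNA. The steps between values of short microRNA genes put 1 read on a gene of 1 kb at 0.0702 and 0.0607 TPM in the ND samples and at 0.0618 and 0.0711 TPM in the HFD samples, so the depths were similar. Ptprc, the gene of CD45, was at 53.7 to 59.4 TPM in all 4 samples. Transcripts of other cells were present as well, and differed between the HFD samples. The summed level of 6 spermatid genes was 1757 and 1774 TPM under ND and 6577 and 2023 TPM under HFD (replicates 1 and 2), with 0 of 6 called between the diets by limma (0 at an unadjusted p under 0.05). The summed level of 9 fibroblast genes was 622 and 668 TPM under ND and 3109 and 6224 TPM under HFD (replicates 1 and 2). In bulk samples, fewer cells of a type and less RNA per cell cannot be told apart.

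HFD was compared with ND on the log2(TPM + 1) scale with limma, over 16849 genes with at least 1 TPM in at least 2 samples, and a gene was called at a Benjamini-Hochberg adjusted p under 0.05 with at least a 1.5-fold change. All 8 members passed this filter. Cd68, Msr1 and Scarb1 rose in HFD, Marco fell, and Scara5, Colec12, Cd5l and Olr1 were not called. The background for the 3 members that rose was 8.08% of all genes tested, and for the 1 that fell it was 10.3%. The median log2 fold change was 0.40 over the 8 members, with a range from -2.41 to 1.05, and 0.06 over all genes tested. Both HFD values lay above both ND values in 5 members (34.1% of all genes tested) and below them in 1 member (32.8%). With 2 samples against 2, an exact two-sided permutation test of a single gene cannot give a p under 0.333, the value it gave for these 6 genes.

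**Figure D1:**
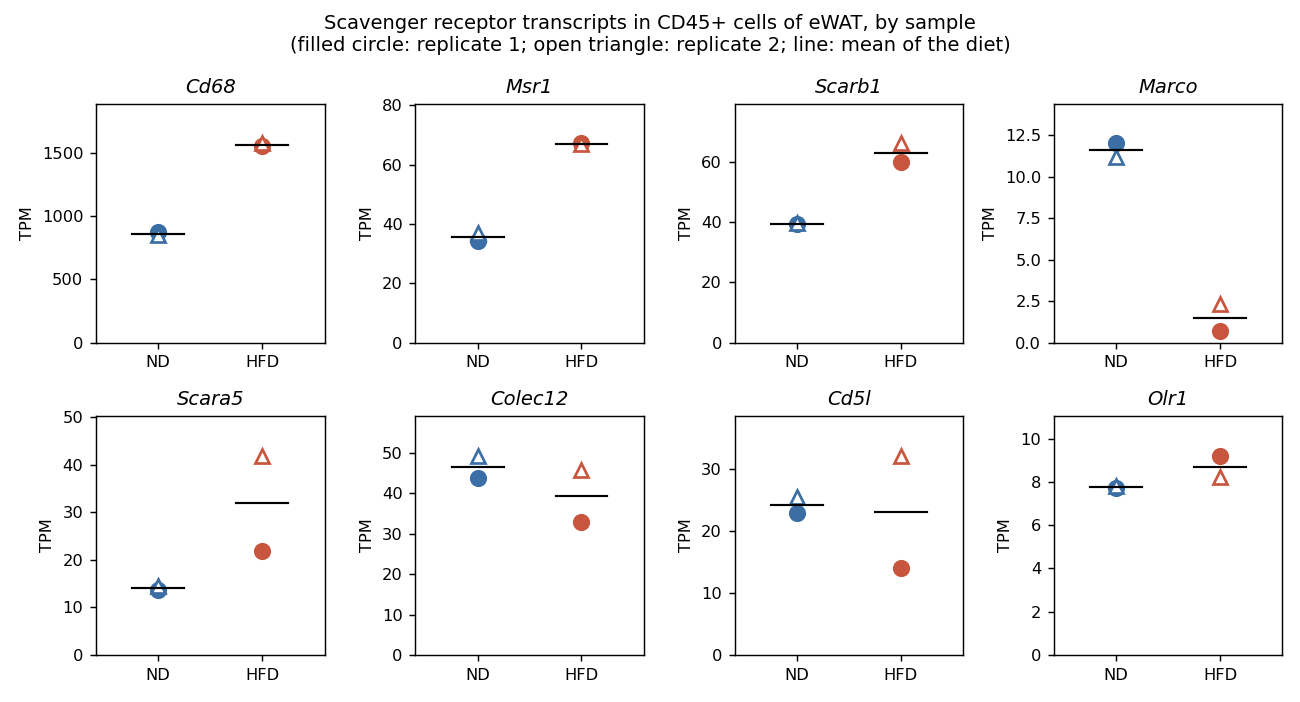
TPM of each member (vertical axis, from 0) in the ND and HFD samples, with replicate 1 as filled circles, replicate 2 as open triangles and the mean of each diet as a line. Cd68, Msr1 and Scarb1 lie higher in both HFD samples and Marco lower, while the HFD samples lie far apart in Scara5 and Cd5l.

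In ND the members followed 1 order in both samples, and no neighbours in it overlapped. Cd68 was the highest by a wide margin, with 82.1% to 83.4% of the summed TPM of the 8 genes, followed by Colec12, Scarb1, Msr1, Cd5l, Scara5, Marco and Olr1 at 7.7 and 7.8 TPM. In HFD the order was Cd68, Msr1, Scarb1, Colec12, Scara5, Cd5l, Olr1 and Marco, again in both samples. There the ranges of Colec12 (32.8 to 45.7 TPM) and Scara5 (21.9 to 41.9 TPM) overlapped, as did those of Scara5 and Cd5l (14.1 to 32.2 TPM), all 3 genes being higher in HFD replicate 2, so that across the samples these neighbours lay within their spread although each sample kept their order. Marco moved from the 56.3 to the 11.4 percentile of the genes tested and Msr1 from the 78.0 to the 85.6 percentile.

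Cd68, the endosomal and lysosomal glycoprotein that is widely used as a macrophage marker, is encoded on chromosome 11, minus strand, between 69664213 and 69666153 of mm10, with 6 exon blocks and 1257 exon bases (GENCODE release M21, as for the other members). It had 874 and 848 TPM under ND and 1554 and 1574 TPM under HFD. The HFD values were close to each other and lay well above both ND values. The mean rose 1.82-fold, from 861 ± 18.2 to 1564 ± 14.1 TPM (SD, n = 2 each), or by 0.86 ± 0.03 on the log2(TPM + 1) scale (estimate ± standard error, adjusted p = 0.00481 in limma).

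Msr1, the class A receptor that takes up acetylated and oxidized LDL, lies on the minus strand of chromosome 8 from 39581685 to 39642673, in 11 exon blocks. It had 34.3 and 37.0 TPM under ND and 67.1 and 67.0 TPM under HFD, so that the diets did not overlap and the HFD samples were almost equal. Its mean rose 1.88-fold, or by 0.89 ± 0.06 on the same scale (adjusted p = 0.00791 in limma). Msr1 and Cd68 kept nearly the same proportion in every sample, with 22.9 to 25.5 TPM of Cd68 for each TPM of Msr1.

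Scarb1, which takes up cholesteryl esters from HDL and also binds modified LDL, lies on the minus strand of chromosome 5 from 125277087 to 125341094, in 16 exon blocks. It had 39.3 and 39.6 TPM under ND and 59.7 and 66.0 TPM under HFD, again without overlap. Its mean rose 1.59-fold, or by 0.66 ± 0.07 on that scale (adjusted p = 0.0150 in limma). This is close to the fold change limit, and after quantile normalization the value was 0.52, below it. With a replicate block Scarb1 was not called either (adjusted p = 0.0609 in limma). The long noncoding RNA gene Gm32701, which lies within Scarb1, had at most 1.4 TPM. Scarb1 is also abundant in the Leydig cells of the testis, and of 7 Leydig cell genes 6 were tested and 1 was called, Star, which was higher in HFD. The summed level of the 7 genes was 284 and 250 TPM under ND and 213 and 160 TPM under HFD, and Lhcgr was listed at 0 in 2 samples. Most of this sum was 1 gene, Insl3, with 256 and 222 TPM under ND and 172 and 131 TPM under HFD, and the other 6 genes summed to 28.4 and 27.9 TPM under ND and to 41.4 and 29.1 TPM under HFD. Insl3 lay lower in both HFD samples without being called (adjusted p = 0.0738 in limma). The sum of the others lay above the ND values in both HFD samples, but Star made up 15.0 of the 29.1 TPM in HFD replicate 2. Cyp11a1 went from 8.7 and 9.5 TPM under ND to 5.4 and 2.8 TPM under HFD. Cyp17a1 went from 7.7 and 7.3 TPM to 14.7 and 7.9 TPM, and neither was called. Star had 5.0 and 5.1 TPM under ND and 12.3 and 15.0 TPM under HFD, and was highest in HFD replicate 2, as Scarb1 was. The other Leydig cell genes tested, Insl3, Cyp17a1, Cyp11a1, Hsd3b6 and Hsd17b3, were all lower in HFD replicate 2 than in HFD replicate 1. The median difference over the genes tested was -0.57 on the log2 scale. The 7 adipocyte genes, of which 1 was called higher and 1 lower, summed to 1012 and 1039 TPM under ND and 1250 and 1371 TPM under HFD, none of them at 0, and most of this was Fabp4, which macrophages express too. The other 6 adipocyte genes summed to 61.1 and 58.1 TPM under ND and 38.3 and 24.7 TPM under HFD. The part of adipocytes or Leydig cells in the Scarb1 result was not tested.

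Marco, a class A receptor of the macrophages of serous cavities, spleen and lung that binds bacteria, particles and acetylated LDL, showed the opposite pattern. It lies on the minus strand of chromosome 1 from 120474538 to 120505024, in 17 exon blocks of 1925 bases together. Marco had 12.0 and 11.2 TPM under ND and 0.7 and 2.3 TPM under HFD (replicates 1 and 2). Both HFD values were far below both ND values, and they also differed from each other. This is approximately 329 and 355 reads under ND, 21.8 reads in HFD replicate 1 (95% Poisson interval 13.8 to 33.3) and 62.3 reads in HFD replicate 2 (47.5 to 79.5), intervals that cover counting error only. On the log2 scale Marco changed by -2.41 ± 0.38 (estimate ± standard error, 95% confidence interval -3.54 to -1.28, adjusted p = 0.0290 in limma), the largest change among the members and the least precise of the 4 calls. The value depends on the pseudocount, at -3.08 with 0.1 and -1.36 with 5, both called. Leaving out HFD replicate 2 gave -2.89, leaving out HFD replicate 1 gave -1.93, and Marco was not called with a replicate block (adjusted p = 0.0727 in limma) or when genes with low TPM were kept in the test (adjusted p = 0.108). Since Msr1 rose while Marco fell, Msr1 was 2.86 and 3.30 times as abundant as Marco in the ND samples and 95.9 and 29.1 times as abundant in the HFD samples. The 2 genes whose values over the 4 samples lay nearest to those of Marco, each centred on its own mean, were Ctla4 (34.9 and 34.8 TPM under ND, 4.3 and 7.3 TPM under HFD) and Pglyrp1 (49.3 and 42.3 TPM under ND, 4.3 and 9.8 TPM under HFD), at distances of 0.23 and 0.24 on the log2 scale among the 10723 tested genes whose mean reached 5 TPM.

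Without ND replicate 1 or ND replicate 2, limma called none of the 8 members and 0 of all genes tested, with 3862 and 4024 genes at an unadjusted p under 0.05. In these fits the adjusted p-values of the 4 called members lay between 0.161 and 0.241, while their log2 fold changes stayed at 0.84 to 0.95 for Msr1, 0.84 to 0.88 for Cd68, 0.65 to 0.66 for Scarb1 and -2.46 to -2.36 for Marco. Without HFD replicate 1 or HFD replicate 2 the 4 members were called. In each of these fits 1 diet has a single sample, which is assumed to vary like the samples of the other diet.

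The sequences before the RefSeq start of Marco and Cd68, the called members with the largest fall and the largest rise among those that had an entry in the promoter table used here, are printed with those of Cd5l, since Cd5l varied most between the HFD samples. An entry was found for 4 of the 8 members, the fourth being Olr1. Each sequence is the strand of the gene, 5′ to 3′, in 250 bases that end at the base before the start (RefSeq, GRCm38.p6, the assembly called mm10). Marco is at chr1:120505025-120505274 on the minus strand, Cd68 at chr11:69666171-69666420 on the minus strand and Cd5l at chr3:87357631-87357880 on the plus strand. Capitals mark matches, on either strand, to TGANTCA (the AP-1 motif) and GAGGAA (the core bound by PU.1).
Marco: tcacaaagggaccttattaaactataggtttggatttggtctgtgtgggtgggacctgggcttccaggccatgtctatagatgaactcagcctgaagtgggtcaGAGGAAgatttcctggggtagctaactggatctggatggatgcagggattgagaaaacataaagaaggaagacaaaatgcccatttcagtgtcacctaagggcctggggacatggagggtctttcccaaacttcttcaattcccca
Cd68: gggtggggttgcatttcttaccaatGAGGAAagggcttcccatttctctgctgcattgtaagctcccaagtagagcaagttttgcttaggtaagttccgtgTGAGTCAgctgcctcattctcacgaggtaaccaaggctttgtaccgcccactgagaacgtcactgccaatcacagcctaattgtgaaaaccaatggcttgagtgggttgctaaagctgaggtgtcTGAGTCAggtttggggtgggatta
Cd5l: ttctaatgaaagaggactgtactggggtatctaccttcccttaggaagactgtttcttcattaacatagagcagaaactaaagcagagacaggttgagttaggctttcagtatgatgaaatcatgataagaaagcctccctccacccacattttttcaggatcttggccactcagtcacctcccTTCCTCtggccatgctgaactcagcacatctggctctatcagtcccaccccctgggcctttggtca
Cd68 held 2 matches to TGANTCA, at 149 to 143 and at 24 to 18 bases before the start, and a match was found in 6.87% of 27025 promoters of this length. Marco and Cd5l held none of these letters in this window, and Olr1 held 1. GAGGAA had 1 match in each of the 4 windows and in 23.1% of all promoters. TGACNNNGC, the core of the antioxidant response element, was not in any of the 4 windows and was in 10.1% of all promoters. No matches overlapped.

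A list of transcription factor genes was read as well, and the motifs above do not cover all of these factors. Spi1, the gene of PU.1, had 169 TPM in both ND samples and 211 and 207 TPM under HFD. Its change was 0.30 on the log2 scale (adjusted p = 0.0180 in limma), below the 1.5-fold limit. Nfe2l2, the gene of NRF2, was at 0.43 (adjusted p = 0.0488 in limma), also below the limit. Nr1h3, the gene of the oxysterol receptor LXR-alpha, rose from 4.7 and 4.9 TPM to 21.2 and 20.9 TPM, a log2 fold change of 1.93 (adjusted p = 0.00449). Pparg rose as well (1.18), and Rxra, the gene of their partner RXR-alpha, fell (-0.66), while Nr1h2 was not called. Of the 7 transcription factor genes in the list, 2 were called higher and 1 lower, against 8.08% and 10.3% of all genes tested. Their median log2 fold change was 0.30. With a pseudocount of 5 or with scaling to the macrophage genes 2 were higher and 0 lower, Rxra no longer being called, and with a replicate block 1 was higher and 0 lower.

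Scara5 had the highest log2 fold change of the members, 1.05, but was not called. It lies on the plus strand of chromosome 14 from 65666403 to 65764826, in 12 exon blocks. Scara5 had 13.6 and 14.6 TPM under ND and 21.9 and 41.9 TPM under HFD (replicates 1 and 2). Both HFD values lay above both ND values, and HFD replicate 2 lay much above HFD replicate 1. The 95% confidence interval ran from -0.0041 to 2.11 and the adjusted p was 0.119 in limma. With 1 HFD sample left out, Scara5 passed the thresholds, at 1.51 without HFD replicate 1 (adjusted p = 0.0330) and at 0.60 without HFD replicate 2 (adjusted p = 0.0483).

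All 9 fibroblast genes were also higher in both HFD samples than in both ND samples, against 34.1% of all genes tested. Of them 6 were called higher, against 8.08% of all genes tested, and none was at 0 in any sample. Between the HFD samples they differed by 0.91 to 1.12 on the log2 scale, each time with replicate 2 the higher, and Scara5 differed by 0.91 in the same direction. The level of Scara5 divided by that of Pi16, a gene of adventitial fibroblasts, was 0.716 and 0.745 in ND and 0.866 and 0.776 in HFD. Divided by Col1a1, the gene of a collagen I chain, it was 0.263 and 0.296 in ND and 0.0460 and 0.0408 in HFD. Pi16 had the smallest log2 fold change of the 9 fibroblast genes (0.91, not called) and the only one below that of Scara5. The other 8 had larger values than Scara5, up to 3.83 for Lum, and the median of the 9 was 2.82. The part of fibroblasts in the Scara5 values was not tested. The 2 genes with values nearest to those of Scara5, measured as for Marco, were Ctgf (27.3 and 29.4 TPM under ND, 42.4 and 78.6 TPM under HFD) and C1rb (10.8 and 11.6 TPM under ND, 16.8 and 34.5 TPM under HFD), at distances of 0.056 and 0.065.

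**Figure D2:**
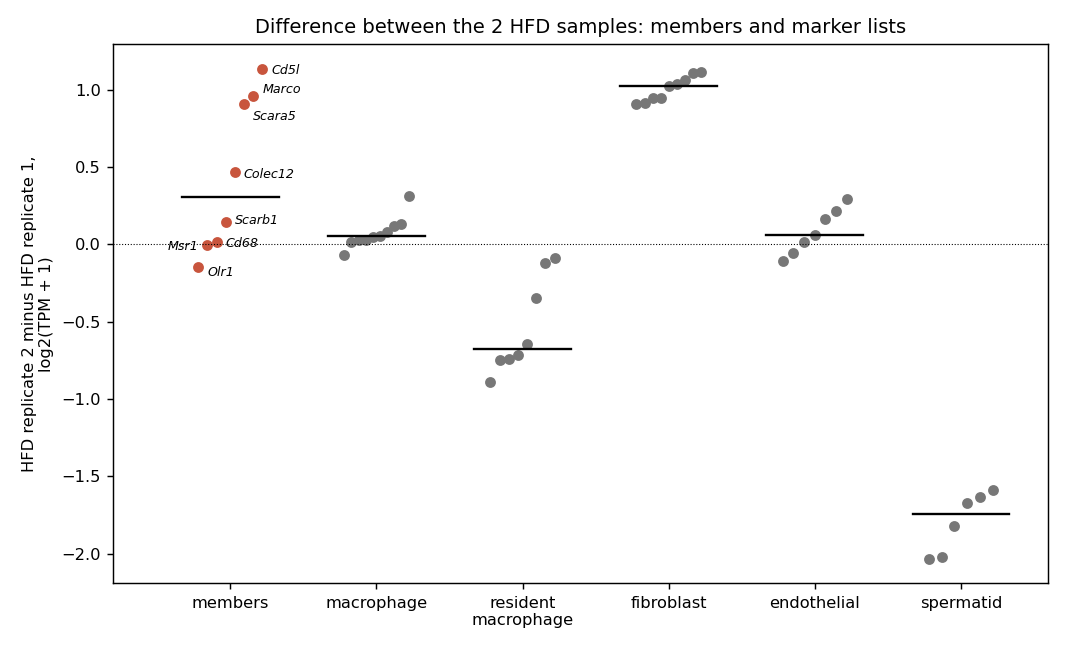
Difference of log2(TPM + 1) between HFD replicate 2 and HFD replicate 1 (vertical axis) for each member and for the genes of 5 marker lists, with each gene as a point and each list's median as a line. Scara5 (0.91), Marco (0.96) and Cd5l (1.14) lie near the height of the fibroblast genes. Msr1, Cd68 and Scarb1 lie near 0, as do the macrophage and the endothelial genes, and the spermatid genes lie lowest.

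Colec12, a class A receptor with a C-type lectin domain that is found on endothelial and stromal cells, lies on the plus strand of chromosome 18 from 9707595 to 9882644. It had 43.8 and 49.3 TPM under ND and 32.8 and 45.7 TPM under HFD, so that HFD replicate 2 lay between the ND samples. The log2 fold change was -0.26 (95% confidence interval -0.84 to 0.33, adjusted p = 0.407 in limma). Of 7 endothelial genes none was called in limma (4 at an unadjusted p under 0.05), and 2, Cdh5 at 0.46 and Egfl7 at -0.31, had an adjusted p under 0.05. Their summed level was 290 and 293 TPM under ND and 326 and 343 TPM under HFD, with none at 0.

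Cd5l, the secreted macrophage protein also called AIM, lies on the plus strand of chromosome 3 from 87357881 to 87371073, in 6 exon blocks. It had 22.9 and 25.6 TPM under ND and 14.1 and 32.2 TPM under HFD (replicates 1 and 2). The ND values lay between the HFD values, which differed by 1.14 on the log2 scale, the widest gap of any member. The HFD values correspond to approximately 465 reads (95% Poisson interval 424 to 509) and 922 reads (863 to 983), so the gap is larger than the counting error. The log2 fold change was -0.17 (95% confidence interval -1.50 to 1.16, adjusted p = 0.800 in limma), an interval that includes large changes either way. Leaving out HFD replicate 2 gave -0.74 and leaving out HFD replicate 1 gave 0.40. Marco and Cd5l were both higher in HFD replicate 2, whereas all 8 genes of the resident macrophage list, Timd4, Lyve1, Cd163, Mrc1, Folr2, F13a1, Cbr2 and Vsig4, were lower in HFD replicate 2 than in HFD replicate 1. All 8 were lower in both HFD samples than in both ND samples, against 32.8% of all genes tested. Of them 7 were called lower, against 10.3% of all genes tested, and Vsig4 (-0.88) was not called. The median change of the list was -2.46 on the log2 scale. The summed level of the list went from 4637 and 4751 TPM under ND to 1566 and 1241 TPM under HFD, with none at 0. Marco thus fell along with the resident macrophage genes between the diets but stood opposite to them between the HFD samples. The part of resident macrophages in the fall of Marco was not tested.

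Olr1, the receptor LOX-1 of endothelial cells and myeloid cells, was the lowest member in ND. It lies on the minus strand of chromosome 6 from 129485244 to 129507165. It had 7.7 and 7.8 TPM under ND and 9.2 and 8.2 TPM under HFD. Both HFD values lay above both ND values, with a log2 fold change of 0.15 (95% confidence interval -0.13 to 0.42, adjusted p = 0.322 in limma), an interval that lies within a 1.5-fold change either way.

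The general macrophage genes did not move in 1 direction with Cd68 and Msr1. Of 10 such genes, Adgre1, the gene of F4/80, rose (0.78), C1qa fell (-0.62) and 8 were not called, with a median log2 fold change of -0.24. Their summed level was 20578 and 19960 TPM under ND and 16244 and 17580 TPM under HFD, with none at 0. Lyz2, C1qa, C1qb, Cd14 and C1qc made up most of this sum. Adgre1 and Itgam (0.10, not called), 2 of the 10 genes, lay higher in both HFD samples than in both ND samples, and 6 lay lower, against 34.1% and 32.8% of all genes tested. Among these 6, Csf1r (-0.56, adjusted p = 0.00929 in limma), C1qc (-0.46, adjusted p = 0.00966) and C1qb (-0.30, adjusted p = 0.0243) had an adjusted p under 0.05 with a change below the 1.5-fold limit. The part of macrophage content in the Cd68 and Msr1 results was not tested. When the samples were scaled to an equal mean of these 10 genes, an alternative chosen after the data were seen, the log2 fold changes were 1.01 for Cd68, 1.04 for Msr1, 0.80 for Scarb1 and -2.31 for Marco, all 4 called. The mean of these 10 genes was lower in HFD, so the scaling raised the HFD values of all genes against ND. The median of all genes tested moved from 0.06 to 0.18. The scaling could therefore only enlarge the rises of Cd68, Msr1 and Scarb1, and it is no test of macrophage content. Of 7 neutrophil genes, 6 were tested and 5 fell, with sums of 72.5 and 95.9 TPM under ND and 29.4 and 32.8 TPM under HFD, and Ly6g was at 0 to 0.1 TPM in all 4 samples.

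The other scavenger receptors were read from the same fit, for 16 genes of which 12 were tested. Of these, 6 rose, 3 fell and 3 were not called, with a median log2 fold change of 0.51. Cd36, the class B receptor for oxidized LDL and long-chain fatty acids, had 131 and 137 TPM under ND and 308 and 314 TPM under HFD, with a change of 1.21 ± 0.04 on the log2 scale (adjusted p = 0.00449). Lrp1, a large receptor for remnant lipoproteins and proteinase complexes, rose from 288 and 318 TPM to 749.9 and 787 TPM (1.34). Cd44 (1.02) and Clec7a, the gene of dectin-1 (0.60), rose as well. Stab2 rose from 1.7 and 1.9 TPM to 9.8 and 8.0 TPM (1.82), while its relative Stab1 fell (-0.71), so the 2 stabilin genes moved in opposite directions. Scara3, a further class A member, was called higher (1.62, adjusted p = 0.0489) and, like Scara5, was higher in HFD replicate 2 (by 0.86 against HFD replicate 1). The hemoglobin-haptoglobin receptor Cd163 fell from 201 and 212 TPM to 38.6 and 20.4 TPM (-2.83), and the mannose receptor Mrc1 fell too (-0.83). These 2 genes are also in the resident macrophage list. Cxcl16 was at 0.40 (adjusted p = 0.0341 in limma), a change below the 1.5-fold limit. Scarb2 and Scarf1 were not called, and Megf10, Ager, Lrp2 and Asgr1 did not pass the filter. After median-ratio scaling or quantile normalization 4 receptors rose and 3 fell, with a replicate block 3 rose and 2 fell, and with scaling to the macrophage genes 6 rose and 2 fell.

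**Figure D3:**
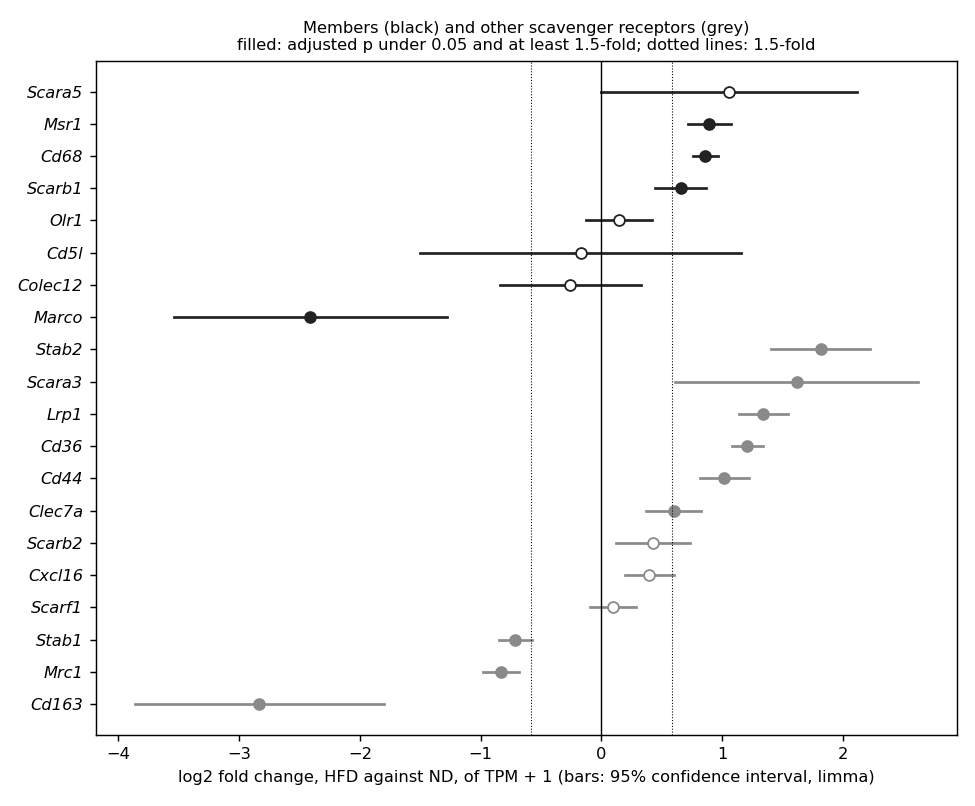
Log2 fold change of TPM + 1 between HFD and ND (horizontal axis) with its 95% confidence interval for the 8 members (black) and the 12 other scavenger receptors tested (grey), where filled points passed both thresholds and dotted lines mark a 1.5-fold change. Msr1, Cd68 and Scarb1 lie to the right of the upper line, Marco and Cd163 lie farthest to the left, and the intervals of Cd5l and Scara5 are wide.

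Modified LDL that enters by these receptors is broken down in the lysosome, and its cholesterol is then stored as esters in lipid droplets or exported. Of 16 genes of lipoprotein and cholesterol handling, 14 were tested, 7 rose, 1 fell and 6 were not called, with a median log2 fold change of 0.79. The shares over all genes tested were 8.08% called higher and 10.3% called lower. Among the lysosomal steps, Lipa, the acid lipase that splits cholesteryl esters, rose from 176 and 185 TPM to 753 and 762 TPM (2.06, adjusted p = 0.00378 in limma), and Npc1, which exports the freed cholesterol, rose (0.93), while Npc2 was at 0.34, below the limit. Soat1, which re-esterifies cholesterol for storage, rose from 16.9 and 17.7 TPM to 74.2 and 72.3 TPM (2.02), and the lipid droplet coat gene Plin2 rose (1.64). Nceh1, a cholesteryl ester hydrolase and so a gene of the opposite step to Soat1, rose the most (2.72). The exporter gene Abcg1 rose from 38.1 and 36.6 TPM to 134 and 139 TPM (1.84), whereas Abca1, with 38.8 and 43.0 TPM under ND and 36.5 and 31.8 TPM under HFD, was not called (-0.25, 95% confidence interval -0.57 to 0.06). Lpl, the lipase of triglyceride-rich lipoproteins, rose (2.10), and Cyp27a1, which makes an oxysterol, fell (-0.87). Apoe was at -0.32 (adjusted p = 0.0322 in limma), a change below the 1.5-fold limit, and Pltp was not called. Pdzk1, the gene of a scaffold protein of SR-BI, had 4.0 and 4.3 TPM under ND and 11.7 and 4.1 TPM under HFD (replicates 1 and 2), so it did not follow Scarb1 in HFD replicate 2, and it was not called. Vldlr did not pass the filter.

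**Figure D4:**
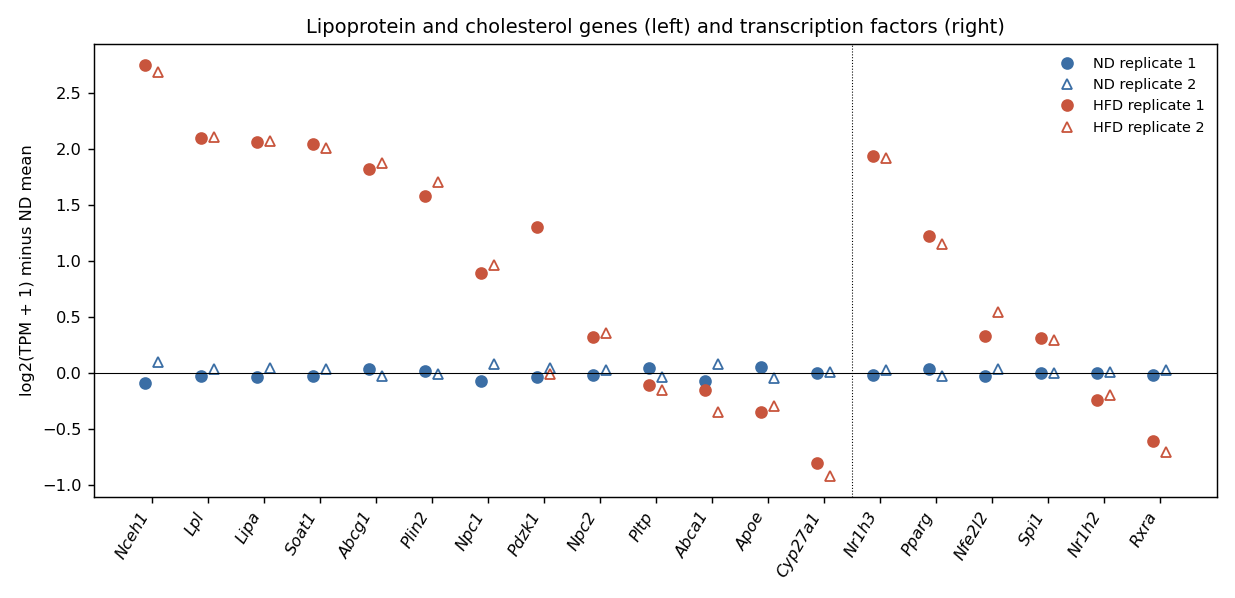
Log2(TPM + 1) of each sample minus the ND mean (vertical axis) for the lipoprotein and cholesterol genes and, right of the dotted line, the transcription factors that are reported, with replicate 1 as filled circles and replicate 2 as open triangles. The HFD samples lie together for most genes, from 2.72 above the ND mean on average for Nceh1 to 0.87 below it for Cyp27a1, and apart for Pdzk1.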

How the data were processed

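RNA of CD45+ cells from eWAT was sequenced in 2 ND and 2 HFD samples with stranded mRNA libraries. For trimming the authors used Trim Galore 0.4.2 and cutadapt 1.9.1, and for alignment to mm10 STAR 2.6.1e. They discarded duplicates, used featureCounts 1.6.2 for counts per gene and deposited TPM, printed to 1 decimal. The gene annotation and the use of strand in counting are not given in the sources used here. TPM are not counts, so the values were compared as log2(TPM + 1) with limma 3.58.1 in R 4.3.3 (lmFit, eBayes with a variance trend, Benjamini-Hochberg adjustment over all genes tested), after a filter of at least 1 TPM in at least 2 samples. The pseudocount of 1 understates the change of low genes. The steps were tested on simulated data. The members and lists were chosen with earlier results of these data known. Named were the 8 members, the genes of the lists of other scavenger receptors, lipoprotein and cholesterol handling and transcription factors, marker genes that stand beside a member, and for members with an absolute log2 fold change of at least 1 the 2 genes nearest in Euclidean distance. The values of some genes that the counts of these lists include are not reported here. The marker lists were for macrophages, resident macrophages, fibroblasts, endothelial cells, adipocytes, neutrophils, Leydig cells and spermatids. Positions and exon lengths are from GENCODE release M21. Read numbers were estimated from the steps of the values of 208 to 250 short microRNA genes per sample and are approximate. The motifs were picked after the sequences were at hand and serve as a description. Alternatives were other pseudocounts, filters, scalings, fold limits and variance models, a replicate block, and fits that each left out 1 sample. Matplotlib 3.10.9 was used for figures.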

Additional observations from a re-analysis of the deposited data

How the results depend on the processing

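Of 112 fits of single members under an alternative, 97 kept their direction and their side of the thresholds. Without a low-value filter, Marco was at -2.41 and not called (adjusted p = 0.108 in limma), 0 members were called lower (1 at an unadjusted p under 0.05) and 1778 genes were called in place of 3097. The larger number of genes tested is part of that setting. The labels give both diets replicate numbers 1 and 2, but deviations from the diet means did not go together within a number (r = -0.015 across genes), and no pairing was assumed. With a replicate block, Marco (-2.41, adjusted p = 0.0727) and Scarb1 (0.66, adjusted p = 0.0609) were not called, 0 members were called lower (1 at an unadjusted p under 0.05) and 812 genes were called, with 1 residual degree of freedom. After quantile normalization Scarb1 was at 0.52, under the fold limit. Marco was called at -3.08 with a pseudocount of 0.1 and at -1.36 with 5. A pseudocount of 5 gave 2015 genes called and a limit of 2-fold gave 1602, with 0 members called higher at 2-fold (3 at an unadjusted p under 0.05).

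In the fits that each left out 1 sample, the value on the log2 scale lay between 0.84 and 0.95 for Msr1, -2.89 and -1.93 for Marco, 0.84 and 0.88 for Cd68, 0.59 and 0.73 for Scarb1, 0.60 and 1.51 for Scara5, -0.49 and -0.02 for Colec12, 0.07 and 0.22 for Olr1 and -0.74 and 0.40 for Cd5l, which changed direction without HFD replicate 1. The number of members called higher lay between 0 and 4, the number called lower between 0 and 1 and the number of genes called between 0 and 4232. Scaling to the macrophage genes, chosen after the data were seen, moved the median of all genes from 0.06 to 0.18 and the share of called genes that were higher in HFD from 43.9% to 58.3%. Marco had few reads in HFD, and its HFD samples differed by more than counting error.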
